A study of Mus musculus with 12 samples.

Results

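The mesenchymal transition factors and markers described here are 10 genes of the 56748 in the deposited count table, taken by their gene names: the transcription factors Snai1, Snai2, Zeb1, Zeb2, Twist1, Twist2 and Prrx1, and the marker genes Vim, Cdh2 and Fn1. Each name occurred once in the table, and all 10 genes passed the filter on low counts, as did 20229 genes in all. They were followed in whole-lung RNA of 4.5-month-old mice with 4 libraries in each of 3 genotypes. The S1pr1 KO mice were MMTV-Cre;S1pr1fl/fl; MMTV-PyMT, the C3 KO mice MMTV-Cre;C3Tdt:MMTV-PyMT, and the WT mice MMTV-Cre; MMTV-PyMT by the study's design. The strain label of the WT samples reads only MMTV-PyMT. All 3 groups carried the polyoma middle T oncogene and, by the design, Cre, each under the mouse mammary tumour virus promoter. The activity of this promoter lies mostly in epithelium of the mammary gland. In which cells of these lungs C3 or S1pr1 was deleted cannot be told from whole-lung RNA. Every sample is labelled as lung metastasis. The study's question was what deleting complement C3, or the receptor S1pr1 for sphingosine-1-phosphate, does to lung metastases. The labels do not tell whether each library is a different animal, and p-values therefore speak only to the spread between these libraries.

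In the epithelial-mesenchymal transition, epithelial cells loosen their junctions and take on a motile, matrix-producing state, a programme that carcinoma cells can use when they spread. The Snail, Zeb and Twist proteins bind E-box sequences, and Snail and Zeb factors repress E-cadherin and other epithelial genes, while vimentin filaments, N-cadherin and fibronectin mark the mesenchymal state. In a healthy lung the same genes are expressed by fibroblasts, endothelium, smooth muscle, macrophages and lymphocytes. Whole-lung RNA therefore sums tumour and host cells, and a change in the number of cells of a type cannot be told apart from a change in RNA per cell.

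Library totals lay between 32274797 and 53063470 counts. Lung markers were abundant in all 12 libraries, the lowest level of the surfactant gene Sftpc being 9411 CPM and that of the endothelial cadherin Cdh5 650.3 CPM, whereas the milk protein gene Csn2 reached at most 0.916 CPM. Another milk protein gene, Csn3, was higher, with a mean of 11.8 CPM in S1pr1 KO and 1.53 CPM in C3 KO. Only 2 S1pr1 KO libraries exceeded every C3 KO library, and these groups overlapped (log2 fold change 2.94, SE 1.24, edgeR adjusted p = 0.376). The 12 tested genes of a mammary epithelium list, which also holds receptor genes such as Erbb3, summed to 158 to 215 CPM per library. CPM are read counts scaled by the TMM library size and do not correct for gene length. The targeted genes did not follow the labels in every library. S1pr1 was at 132, 366, 142 and 154 CPM in S1pr1 KO 1 to 4 against 295, 491, 319 and 330.0 CPM in WT 1 to 4, and C3 was at 475, 465, 601 and 1416 CPM in C3 KO 1 to 4 against 1024, 787, 903 and 799 CPM in WT 1 to 4. S1pr1 in the library labelled S1pr1 KO 2 was inside the range of WT, and C3 in the library labelled C3 KO 4 was above that of WT, so directions are given as labelled. Where leaving out either of them turned the sign of a member's printed fold change or moved it by over 1.5 times, the value without it is given beside it.

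Compared per length, Vim was the most abundant of the 10 genes and Twist2 the least. Over the 12 libraries Vim averaged 210.5 ± 17.2 FPKM and Fn1 58.6 ± 5.18 FPKM (SD, n = 12). They were followed by Snai1 at 13.2 ± 3.08, Zeb1 at 12.5 ± 1.23, Zeb2 at 6.50 ± 0.776 and Snai2 at 5.74 ± 1.49 FPKM, and then by Prrx1 at 1.5 ± 0.208 and Cdh2 at 1.18 ± 0.420 FPKM. Twist1 averaged 0.364 ± 0.338 FPKM and Twist2 0.208 ± 0.0493 FPKM. Neighbours in this order kept it in all 12 libraries for 5 of 9 pairs. The exceptions were Snai1 over Zeb1 (7 of 12 libraries), Zeb2 over Snai2 (9 of 12), Prrx1 over Cdh2 (11 of 12) and Twist1 over Twist2 (9 of 12), whose ranges overlapped. Cdh2 lay above Twist1 within each library although their ranges also overlapped across libraries. The highest library exceeded the lowest by 1.33-fold for Vim and 1.35-fold for Fn1 but by 3.37-fold for Cdh2, and by 71.6-fold for Twist1, whose lowest library held a single read.

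**Figure D1:**
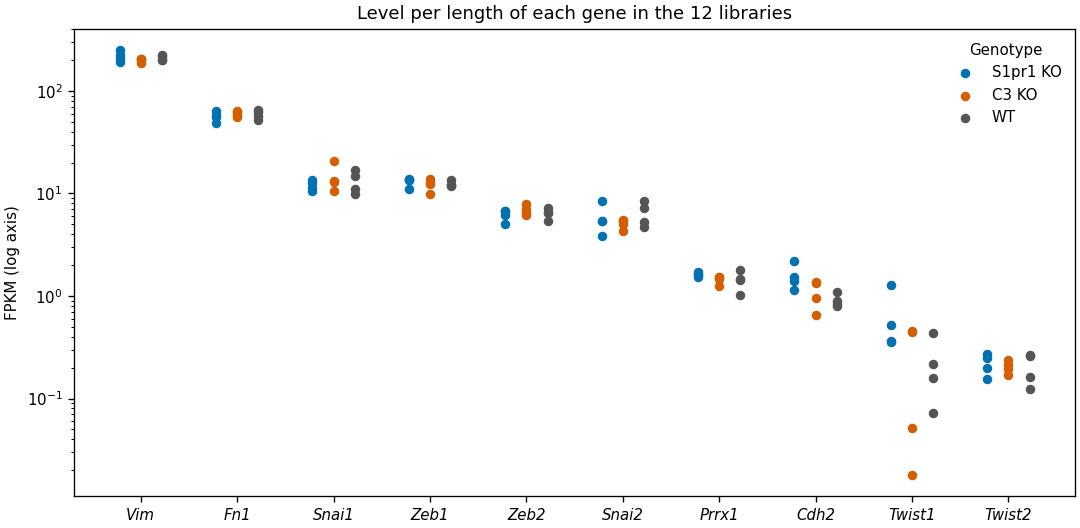
FPKM (log axis) of each of the 10 genes in order of mean level, 1 point per library, coloured by genotype (S1pr1 KO, C3 KO and WT, n = 4 each). Vim and Fn1 stand above the transcription factors, and Twist1 has the widest scatter, from 0.0179 to 1.28 FPKM.

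None of the 10 genes passed the test in any of the 3 comparisons (edgeR quasi-likelihood test, Benjamini-Hochberg adjusted p under 0.05 over 20229 genes). In S1pr1 KO against WT 0 of 10 passed, where 1.35% of all genes did (0.821% higher and 0.534% lower). Of the 10, 6 were higher and 4 lower, and their median log2 fold change was 0.06 against -0.0011 over all genes. Only Cdh2, at 0.79, had an unadjusted p under 0.05, as had 18% of all genes. In C3 KO against WT 0 of 10 passed, where 0.00989% of all genes did (0.00494% in each direction). Here 6 were higher and 4 lower, and the median was 0.02. No member had an unadjusted p under 0.05, which 11% of all genes had. In S1pr1 KO against C3 KO 0 of 10 passed, where 0% of all genes did, and 7 were higher and 3 lower with a median of 0.13. Again only Cdh2 had an unadjusted p under 0.05, as had 12% of all genes. DESeq2 called Cdh2 in S1pr1 KO against WT, where it called 5.4% of all genes. It called 0 of 10 members in C3 KO against WT and in S1pr1 KO against C3 KO, where it called 0.784% and 1.29% of all genes. The 4 libraries of both groups did not overlap for 1 member in S1pr1 KO against WT (Cdh2, higher), as for 11.3% of all genes (6.16% higher and 5.18% lower). They did so for 0 of 10 in C3 KO against WT, where 6.09% of all genes did (3% higher and 3.09% lower), and for 0 of 10 in S1pr1 KO against C3 KO, where 6.4% did (3.55% higher and 2.84% lower). Both comparisons with WT share its 4 libraries.

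**Figure D2:**
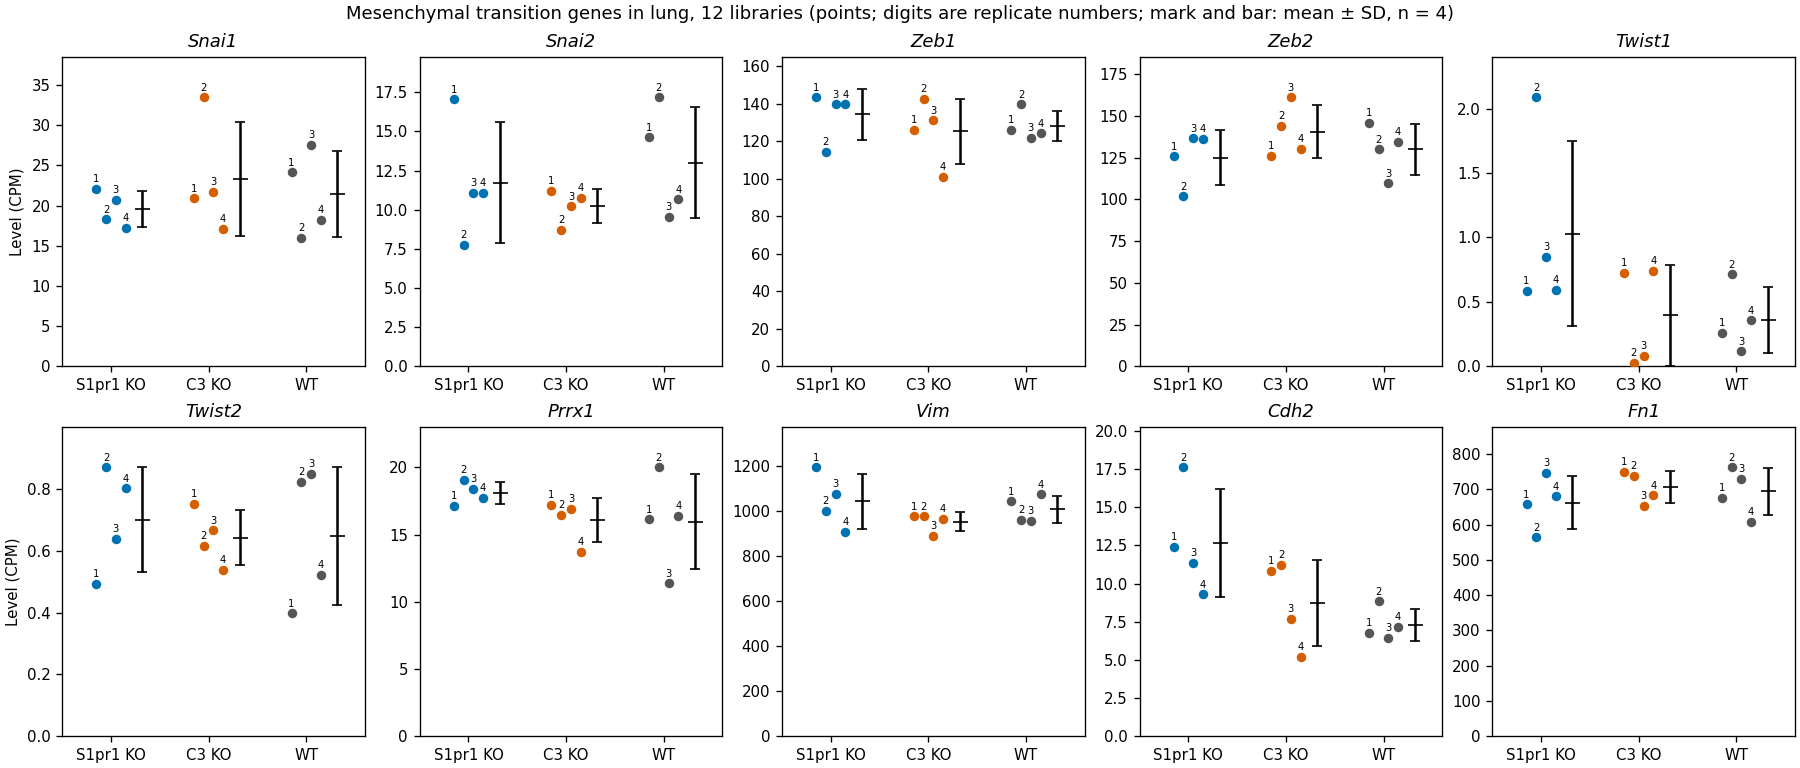
CPM of each gene by genotype (S1pr1 KO, C3 KO, WT), 1 point per library with its replicate number, and the group mean ± SD (n = 4) as a mark and bar; each panel has its own axis from 0. Only the S1pr1 KO points of Cdh2 all lie above the WT points, from 9.29 to 17.6 CPM against 6.44 to 8.83 CPM.

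Snai1 (ENSMUSG00000042821, chromosome 2 from 167380115 to 167384734, + strand, GRCm39) and Snai2 (ENSMUSG00000022676, chromosome 16 from 14523716 to 14527249, + strand) encode the zinc finger repressors Snail and Slug. Snai1 was at 22.1, 18.3, 20.7 and 17.2 CPM in S1pr1 KO 1 to 4, 20.9, 33.5, 21.7 and 17.1 CPM in C3 KO 1 to 4, and 24.1, 16.0, 27.6 and 18.2 CPM in WT 1 to 4. C3 KO 2 was the highest library, and the groups overlapped. Its log2 fold change was -0.13 (SE 0.21, 95% interval -0.58 to 0.32, edgeR adjusted p = 0.792) in S1pr1 KO against WT and 0.12 (SE 0.21, 95% interval -0.33 to 0.56, edgeR adjusted p = 0.887) in C3 KO against WT. The sign in C3 KO rested on C3 KO 2, without which the value was -0.10. Removal of the library labelled C3 KO 4 gave 0.24.

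Snai2 was at 17.0, 7.75, 11.1 and 11.1 CPM in S1pr1 KO 1 to 4, 11.2, 8.72, 10.2 and 10.8 CPM in C3 KO 1 to 4, and 14.6, 17.2, 9.55 and 10.7 CPM in WT 1 to 4. S1pr1 KO 1, WT 1 and WT 2 stood above the other libraries, while the C3 KO libraries lay close together. C3 KO and WT differed in Snai2 by a log2 fold change of -0.35 (SE 0.23, 95% interval -0.84 to 0.15, edgeR adjusted p = 0.620), or -0.18 with WT 2 left out. In S1pr1 KO against WT it was -0.15 (SE 0.23, 95% interval -0.64 to 0.35, edgeR adjusted p = 0.790), and between the knockouts (S1pr1 KO against C3 KO) 0.20 (edgeR adjusted p = 0.771). With the library labelled S1pr1 KO 2 left out these became 0.01 and 0.35. The interval in C3 KO reached down to 0.557 times the WT level.

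Since Snail proteins bind E-boxes with the core CAGGTG or its reverse complement CACCTG, RefSeq promoter sequences (250 bases before to 50 bases after each gene's start, GRCm38.p6) were searched for these letters on both strands. A sequence was at hand for 6 of the 10 genes (Snai1, Zeb2, Twist1, Twist2, Prrx1 and Vim). Among them the core occurred only in Snai1, once, beginning 126 bases before the start, where 20.2% of the 32851 promoters in the table hold it. The wider E-box CANNTG, which contains the core, was found in 72.3% of all promoters, and of these 6 genes likewise only in Snai1, at that place. The promoters of Snai1 and, for comparison, of the bHLH factor Twist1 and the marker Vim are shown 5′ to 3′ on the gene's strand, with the CACCTG match in capitals.
Snai1 promoter, chr2:167537945-167538244, + strand, GRCm38.p6: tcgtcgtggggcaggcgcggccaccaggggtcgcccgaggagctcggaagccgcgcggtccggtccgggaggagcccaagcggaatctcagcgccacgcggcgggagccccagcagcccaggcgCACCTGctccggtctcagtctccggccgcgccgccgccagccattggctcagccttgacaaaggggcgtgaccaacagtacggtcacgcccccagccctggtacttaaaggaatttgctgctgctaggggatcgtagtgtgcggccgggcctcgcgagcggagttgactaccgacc
Twist1 promoter, chr12:33957421-33957720, + strand, GRCm38.p6: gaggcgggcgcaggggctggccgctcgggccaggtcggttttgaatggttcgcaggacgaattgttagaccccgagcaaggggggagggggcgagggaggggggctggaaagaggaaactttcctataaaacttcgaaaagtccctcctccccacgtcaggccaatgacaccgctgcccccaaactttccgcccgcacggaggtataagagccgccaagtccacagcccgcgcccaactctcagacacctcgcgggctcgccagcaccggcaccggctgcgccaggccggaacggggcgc
Vim promoter, chr2:13574061-13574360, + strand, GRCm38.p6: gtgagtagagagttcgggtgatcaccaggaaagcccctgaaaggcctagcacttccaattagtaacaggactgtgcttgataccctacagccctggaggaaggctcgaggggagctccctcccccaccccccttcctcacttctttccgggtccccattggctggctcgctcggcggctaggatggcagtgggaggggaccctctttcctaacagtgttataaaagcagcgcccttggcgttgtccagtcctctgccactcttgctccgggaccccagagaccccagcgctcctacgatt
A match is a run of letters and not evidence of binding, and its absence says only that the letters are not in this window.

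Zeb1 (ENSMUSG00000024238, chromosome 18 from 5591860 to 5775467, + strand, GRCm39) and Zeb2 (ENSMUSG00000026872, chromosome 2 from 44873644 to 45007407, - strand) encode large zinc finger and homeobox proteins that repress epithelial genes. Outside tumours Zeb2 is also known from macrophages and natural killer cells and Zeb1 from T lymphocytes. Zeb1 was at 143, 114, 139.8 and 139.8 CPM in S1pr1 KO 1 to 4, 126, 143, 131 and 101 CPM in C3 KO 1 to 4, and 126, 139.8, 122 and 124 CPM in WT 1 to 4. S1pr1 KO 1, 3 and 4 lay above every WT library, by a small margin over WT 2. S1pr1 KO 2 and C3 KO 4 were the lowest libraries, and the groups overlapped. Relative to WT, Zeb1 had a log2 fold change of 0.07 (SE 0.10, 95% interval -0.15 to 0.29, edgeR adjusted p = 0.775) in S1pr1 KO and -0.03 (SE 0.10, 95% interval -0.25 to 0.19, edgeR adjusted p = 0.946) in C3 KO. These became 0.14 without the library labelled S1pr1 KO 2 and 0.06, with the opposite sign, without that labelled C3 KO 4. All 10 genes of a T cell marker list were lower in S1pr1 KO than in WT (median log2 fold change -1.31), 2 of which, the T cell surface genes Cd4 and Cd6, fell (edgeR adjusted p = 0.0276 and 0.0389), and none of the 10 was at 0 in any library. Their summed level was 21.1 to 48.6 CPM in S1pr1 KO, 55.1 to 84.4 CPM in C3 KO and 47.1 to 80.3 CPM in WT. Between Zeb1 and the mean log2 CPM of this list Pearson's r was -0.0066 (permutation p = 0.985, adjusted p = 0.998 over 190 relations). After the group means were removed r was 0.43 (permutation p = 0.218, adjusted p = 0.708). Beyond these correlations, the part of the T cell genes in the Zeb1 values was not tested.

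Zeb2 was at 126, 102, 137 and 136 CPM in S1pr1 KO 1 to 4, 126, 144, 161 and 130.4 CPM in C3 KO 1 to 4, and 146, 130.0, 109.6 and 134 CPM in WT 1 to 4. C3 KO 3 was highest and S1pr1 KO 2 lowest. Set against WT, Zeb2 had a log2 fold change of -0.06 (SE 0.11, 95% interval -0.30 to 0.19, edgeR adjusted p = 0.846) in S1pr1 KO and 0.11 (SE 0.11, 95% interval -0.13 to 0.36, edgeR adjusted p = 0.772) in C3 KO, and -0.17 (SE 0.11, 95% interval -0.41 to 0.08, edgeR adjusted p = 0.584) in S1pr1 KO against C3 KO. Without the library labelled S1pr1 KO 2, Zeb2 in S1pr1 KO was at 0.03 against WT, with the opposite sign, and at -0.09 against C3 KO. For both Zeb genes the intervals against WT lay between 0.812 and 1.28 times the WT level. All 10 natural killer cell genes of a list were higher in S1pr1 KO than in WT (median log2 fold change 0.93), and of 12 macrophage genes 3 were higher and 9 lower (median -0.19). None of these genes passed. Between Zeb2 and the mean log2 CPM of these lists Pearson's r was 0.16 and 0.28 (permutation p = 0.613 and 0.371). After the group means were removed r was 0.55 and 0.14 (permutation p = 0.070 and 0.670). Positive r was largest with erythroid (0.64), B cell (0.63) and neutrophil genes (0.60), with permutation p = 0.0315, 0.0284 and 0.0432. Their adjusted p was 0.352, 0.337 and 0.409. For neutrophil genes r was 0.68 after removal of the group means (permutation p = 0.0075, adjusted p = 0.4055). The largest negative r was -0.78, with smooth muscle and pericyte genes. The part of these cells in the Zeb2 values was not tested.

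Twist1 (ENSMUSG00000035799, chromosome 12 from 34007670 to 34009828, + strand, GRCm39) and Twist2 (ENSMUSG00000007805, chromosome 1 from 91729183 to 91775750, + strand) encode basic helix-loop-helix factors of mesenchymal cells and were the least abundant of the 10 genes. Twist1 had 31, 84, 32 and 20 reads in S1pr1 KO 1 to 4, 25, 1, 3 and 29 reads in C3 KO 1 to 4, and 11, 26, 4 and 13 reads in WT 1 to 4. Twist1 was at 0.587, 2.09, 0.850 and 0.594 CPM in S1pr1 KO 1 to 4, 0.723, 0.0293, 0.0833 and 0.742 CPM in C3 KO 1 to 4, and 0.257, 0.713, 0.117 and 0.357 CPM in WT 1 to 4. S1pr1 KO 2 stood far above the rest, and S1pr1 KO 1 and 4 lay below WT 2. S1pr1 KO and WT differed in Twist1 by a log2 fold change of 1.5 (SE 0.76, 95% interval -0.15 to 3.16, edgeR adjusted p = 0.325), which was 0.90 once the library labelled S1pr1 KO 2 was left out. S1pr1 KO and C3 KO differed by 1.37 (SE 0.76, 95% interval -0.28 to 3.01, edgeR adjusted p = 0.505), which was 0.75 on leaving out the same library, and C3 KO and WT by 0.14 (SE 0.80, 95% interval -1.60 to 1.88, edgeR adjusted p = 0.973). The last turned to -0.37, the opposite sign, with the library labelled C3 KO 4 left out. These intervals were the widest of the 10 genes, and the coefficient of variation of FPKM over the 12 libraries was 92.7% for Twist1 against 23.6% for Twist2.

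Twist2 was at 0.492, 0.869, 0.637 and 0.801 CPM in S1pr1 KO 1 to 4, 0.752, 0.615, 0.666 and 0.537 CPM in C3 KO 1 to 4, and 0.398, 0.823, 0.849 and 0.521 CPM in WT 1 to 4. The groups overlapped, and Twist2 had between 17 and 35 reads per library. Its log2 fold change was 0.11 (SE 0.29, 95% interval -0.52 to 0.74, edgeR adjusted p = 0.888) in S1pr1 KO against WT and -0.01 (SE 0.29, 95% interval -0.65 to 0.63, edgeR adjusted p = 0.997) in C3 KO against WT. Leaving out the library labelled S1pr1 KO 2 gave -0.01 and -0.0018, and leaving out that labelled C3 KO 4 gave 0.07 in C3 KO against WT.

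Prrx1, a paired-class homeobox factor of limb and stromal mesenchyme (ENSMUSG00000026586, chromosome 1 from 163072688 to 163141279, - strand, GRCm39), was tightly grouped in S1pr1 KO. Prrx1 was at 17.1, 19.1, 18.4 and 17.8 CPM in S1pr1 KO 1 to 4, 17.2, 16.4, 16.9 and 13.7 CPM in C3 KO 1 to 4, and 16.1, 20, 11.4 and 16.4 CPM in WT 1 to 4. The S1pr1 KO libraries lay within the WT range, whose ends were WT 3 and WT 2. S1pr1 KO 2, 3 and 4 lay above every C3 KO library. Log2 fold changes of Prrx1 were 0.18 (SE 0.14, 95% interval -0.12 to 0.48, edgeR adjusted p = 0.547) in S1pr1 KO against WT, 0.01 (SE 0.14, 95% interval -0.29 to 0.31, edgeR adjusted p = 0.991) in C3 KO against WT and 0.17 (SE 0.14, 95% interval -0.13 to 0.47, edgeR adjusted p = 0.668) in S1pr1 KO against C3 KO. With the library labelled C3 KO 4 left out, C3 KO was at 0.08 against WT, and S1pr1 KO at 0.10 against C3 KO.

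Vim encodes the intermediate filament protein vimentin of mesenchymal, endothelial and blood cells (ENSMUSG00000026728, chromosome 2 from 13578738 to 13587637, + strand, GRCm39). Vim was at 1195, 1000.5, 1078 and 907 CPM in S1pr1 KO 1 to 4, 977, 977, 889 and 967 CPM in C3 KO 1 to 4, and 1044, 961, 957 and 1074 CPM in WT 1 to 4. The groups overlapped and S1pr1 KO 1 was highest. For Vim the log2 fold change was 0.05 (SE 0.08, 95% interval -0.13 to 0.23, edgeR adjusted p = 0.800) in S1pr1 KO against WT, -0.08 (SE 0.08, 95% interval -0.26 to 0.10, edgeR adjusted p = 0.767) in C3 KO against WT and 0.13 (SE 0.08, 95% interval -0.04 to 0.31, edgeR adjusted p = 0.550) in S1pr1 KO against C3 KO. The interval against WT reached at most 1.17 times the WT level in S1pr1 KO and 1.07 times in C3 KO, and at least 0.834 times in C3 KO.

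Fn1 encodes fibronectin, a matrix glycoprotein that cells bind through integrins (ENSMUSG00000026193, chromosome 1 from 71624679 to 71692359, - strand, GRCm39). Fn1 was at 657, 564, 747 and 679.5 CPM in S1pr1 KO 1 to 4, 749, 739, 653 and 683 CPM in C3 KO 1 to 4, and 675, 762, 729 and 608 CPM in WT 1 to 4. S1pr1 KO 2 was lowest, WT 2 highest, and the groups overlapped. For Fn1 the log2 fold change was -0.07 (SE 0.09, 95% interval -0.27 to 0.13, edgeR adjusted p = 0.759) in S1pr1 KO against WT and 0.03 (SE 0.09, 95% interval -0.18 to 0.23, edgeR adjusted p = 0.953) in C3 KO against WT. The values were 0.0011 in S1pr1 KO without the library labelled S1pr1 KO 2 and 0.04 in C3 KO without that labelled C3 KO 4. Vim and Fn1 had the narrowest intervals of the 10 genes in both comparisons with WT.

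Cdh2 encodes N-cadherin, the classical cadherin that carcinoma cells can gain in place of E-cadherin and that also joins cardiomyocytes at their intercalated discs (ENSMUSG00000024304, chromosome 18 from 16721934 to 16942303, - strand, GRCm39). Cdh2 was at 12.4, 17.6, 11.4 and 9.29 CPM in S1pr1 KO 1 to 4, 10.8, 11.2, 7.69 and 5.22 CPM in C3 KO 1 to 4, and 6.76, 8.83, 6.44 and 7.19 CPM in WT 1 to 4. Every S1pr1 KO library lay above every WT library. S1pr1 KO 2 was the highest library and C3 KO 4 the lowest. S1pr1 KO and WT differed in Cdh2 by a log2 fold change of 0.79 (SE 0.24, 95% interval 0.27 to 1.32, edgeR adjusted p = 0.114), a 1.74-fold difference with an unadjusted edgeR p of 0.00635. It passed in DESeq2 (0.79, DESeq2 adjusted p = 0.0265), whereas over the other alternatives, leave-one-out fits included, the adjusted p ranged from 0.0546 to 0.223. Leaving out the library labelled S1pr1 KO 2 gave 0.59, and on the log2(FPKM + 1) scale, which understates the change of low genes, the value was 0.42. Against C3 KO, Cdh2 in S1pr1 KO was at 0.54 (SE 0.24, 95% interval 0.01 to 1.06, edgeR adjusted p = 0.404), which was 0.33 after removal of the library labelled S1pr1 KO 2 and 0.35 after removal of that labelled C3 KO 4. In C3 KO against WT it was at 0.26 (SE 0.24, 95% interval -0.27 to 0.78, edgeR adjusted p = 0.754), which was 0.44 after removal of the library labelled C3 KO 4 and 0.12 after removal of C3 KO 2.

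**Figure D3:**
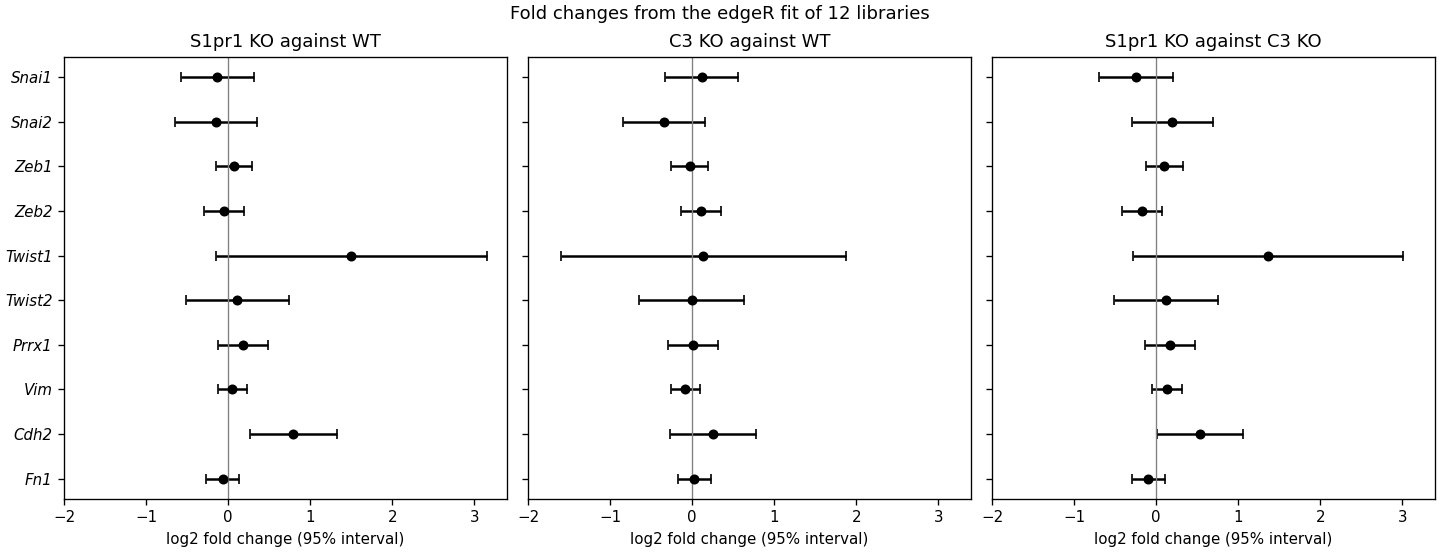
Log2 fold changes of the 10 genes with 95% intervals from the edgeR fit of 12 libraries, for each knockout against WT and for the S1pr1 KO against the C3 KO libraries. Only the Cdh2 intervals in S1pr1 KO against WT (0.27 to 1.32) and against C3 KO (0.01 to 1.06) leave out 0, before any adjustment, and those of Twist1 are the widest.

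Cardiomyocyte genes, which heart muscle and the muscle sleeves of mouse pulmonary veins express, differed beside Cdh2. All 10 genes of a cardiomyocyte list were higher in S1pr1 KO than in WT (median log2 fold change 1.86), 1 of which, the calcium release channel gene Ryr2, rose (1.86, SE 0.39, edgeR adjusted p = 0.0436), and none was at 0 in any library. Their summed level ran from 806 to 3249 CPM in S1pr1 KO, from 422 to 826 CPM in C3 KO and from 172 to 664 CPM in WT. Their score, the mean log2 CPM of the list, was 5.32, 7.60, 6.33 and 5.93 in S1pr1 KO 1 to 4, 5.38, 4.27, 4.91 and 4.93 in C3 KO 1 to 4 and 2.99, 4.86, 4.41 and 5.03 in WT 1 to 4. Across the 12 libraries, between Cdh2 and this score, Pearson's r was 0.69 (permutation p = 0.0141, adjusted p = 0.260) and Spearman's rho 0.61 (permutation p = 0.0406, adjusted p = 0.335), adjusted over 190 relations of members with cell type scores. After the group means were removed r was 0.34. Without the 2 libraries of most extreme score, r was 0.40 over the other 10. The relation thus did not pass. Leaving those 2 libraries out narrows the range of the score, which can itself lower r. The lower r therefore cannot tell whether the relation rests on them. S1pr1 KO 2 was highest in both measures, but C3 KO 2 had 11.2 CPM of Cdh2 at one of the lower scores. The 7 tested genes of a skeletal muscle list summed to 176 CPM in S1pr1 KO 2 and 257 CPM in WT 2, against 9.34 to 18.3 CPM in the other libraries. Between Cdh2 and the score of this list r was 0.42 (permutation p = 0.167, adjusted p = 0.600). After the group means were removed r was 0.56 (permutation p = 0.0242, adjusted p = 0.482). Where the muscle transcripts came from was not tested. In S1pr1 KO against WT all 10 natural killer cell and all 10 ciliated cell genes of further lists were also higher, and all 10 T cell genes lower. Cdh2 had r of larger size with macrophage genes (-0.73, permutation p = 0.00598) and natural killer cell genes (0.72, permutation p = 0.00791), both at an adjusted p of 0.260. The cardiomyocyte score was not particular to Cdh2, since its r with Twist1 was 0.70 (permutation p = 0.0106, adjusted p = 0.260). That r was 0.57 after the group means were removed and 0.71 without the 2 libraries of most extreme score. The part of any of these cells in the Cdh2 value was not tested.

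**Figure D4:**
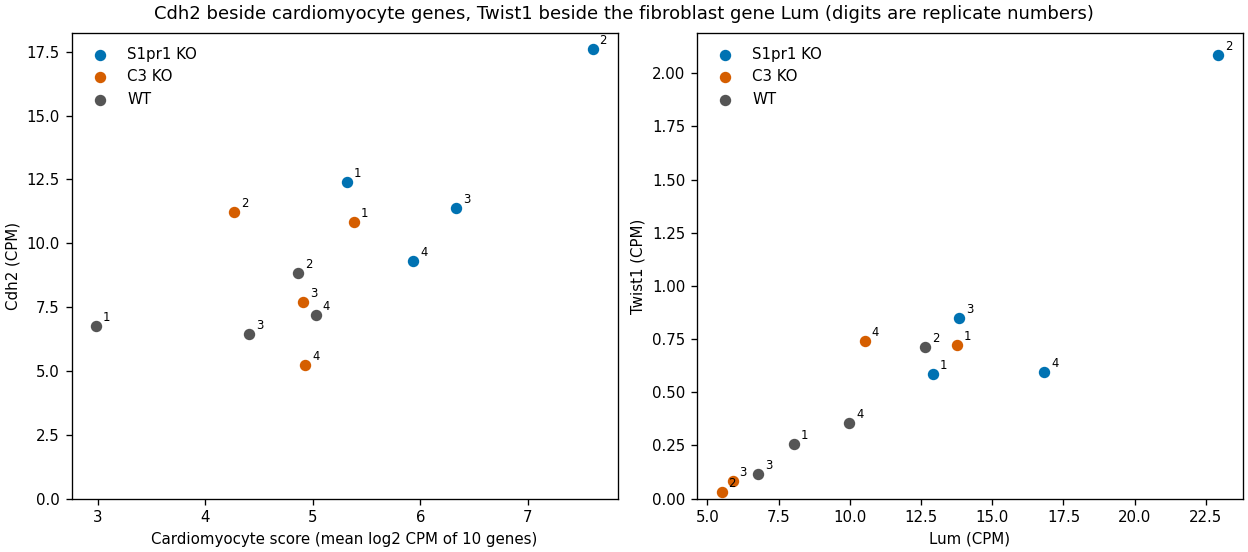
Left, Cdh2 (CPM) against the cardiomyocyte score (mean log2 CPM of 10 genes); right, Twist1 (CPM) against Lum (CPM); 1 point per library with its replicate number, coloured by genotype (n = 4 each). S1pr1 KO 2 lies at the upper right in both panels, at 17.6 CPM of Cdh2 and 2.09 CPM of Twist1. Lum was picked because its r with Twist1 was the highest of 14245 genes in these libraries.

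Over the 12 libraries the 10 genes did not vary as 1 block. Of the 45 pairs of members, 0 passed a permutation test of Pearson's r after Benjamini-Hochberg adjustment, and 2 had an unadjusted p under 0.05. Between Snai1 and Twist1 Pearson's r was -0.76 (permutation p = 0.00403, adjusted p = 0.181) and Spearman's rho -0.66 (permutation p = 0.0235, adjusted p = 0.528), adjusted over the 45 pairs. With the 2 libraries of most extreme Snai1 left out, r was -0.45 over the 10 libraries left without those 2. Leaving them out narrows the range of Snai1, which can itself lower r, so this cannot tell whether the relation rests on those libraries. After the group means were removed r was -0.78 (permutation p = 0.0033, adjusted p = 0.137). Between Prrx1 and Cdh2 Pearson's r was 0.66 (permutation p = 0.0196, adjusted p = 0.441) and Spearman's rho 0.73 (permutation p = 0.00874, adjusted p = 0.393), and r was 0.47 over the 10 libraries left without the 2 of most extreme Prrx1. Of the 190 relations between a member and a cell type score 0 passed, and 22 had an unadjusted p under 0.05. The lowest adjusted p for Pearson's r was 0.162, shared by 3 relations. These were Zeb1 with alveolar type 2 genes (r = -0.83, rho = -0.75), Zeb2 with smooth muscle and pericyte genes (r = -0.78, rho = -0.70) and Twist2 with smooth muscle and pericyte genes (r = 0.79, rho = 0.82). Their permutation p-values for r were 0.00119, 0.00209 and 0.00256 in that order. Without the 2 libraries of most extreme score r was -0.64, -0.50 and 0.69 in the same order. For Spearman's rho the lowest adjusted p was 0.122, between Twist1 and club cell genes (rho = 0.86, permutation p = 0.00064). Pearson's r of that relation was 0.67 (permutation p = 0.0160, adjusted p = 0.260).

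The genes whose pattern over the 12 libraries was most like that of each member were sought by Pearson's r of log2 CPM among 14245 protein coding genes with a mean of at least 1 CPM, as a description of the highest of many values. For Cdh2 the closest was the chromatin protein gene Morf4l1 (r = 0.96). The follistatin-like gene Fstl1 (0.90) was also among the 3 nearest. For Twist1 it was Lum, which encodes the fibroblast proteoglycan lumican (r = 0.95, and 0.94 after removal of the group means). Lum was at 12.9, 22.9, 13.8 and 16.8 CPM in S1pr1 KO 1 to 4, 13.8, 5.50, 5.89 and 10.5 CPM in C3 KO 1 to 4, and 8.05, 12.6, 6.79 and 9.98 CPM in WT 1 to 4. The libraries with the lowest Twist1, C3 KO 2 and C3 KO 3, also had the lowest Lum. Because Lum was picked for its likeness to Twist1 in these same libraries, this is no separate result. Lum itself was at 0.83 in S1pr1 KO against WT and did not pass (edgeR adjusted p = 0.172). Lum is 1 of 14 tested genes of a fibroblast list, of which 5 were higher and 9 lower in S1pr1 KO than in WT (median log2 fold change -0.12) and 0 passed. Among them the growth factor receptor gene Pdgfra was at -0.31 and Pi16 at -0.48 (edgeR adjusted p = 0.0570 and 0.107). Between Twist1 and the score of this list Pearson's r was 0.46 (permutation p = 0.130, adjusted p = 0.547) and Spearman's rho 0.31 (permutation p = 0.331, adjusted p = 0.762), adjusted over the 190 relations, and r was 0.29 without the 2 libraries of most extreme score.

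For Twist2 the nearest genes were the smooth muscle genes Kcnmb1 (r = 0.92) and Cnn1 (0.83), which encode a potassium channel subunit and calponin. For Zeb2 they were the signalling genes Map3k1 (0.95), Lcp2 (0.95), an adaptor of blood cells, and Cyth4 (0.94). Snai1 was closest to the arterial connexin gene Gja4 (0.94), Snai2 to Plekhh2 (0.86), Zeb1 to Ddx60 (0.91), Prrx1 to Fam118a (0.90), Fn1 to Ccne1 (0.86) and Vim to Csnk2b (0.83). No member was among the 3 nearest genes of another member.

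The wider pathway was read from 6 further lists, of which 126 genes were tested. None passed in any comparison (edgeR adjusted p, lowest 0.0665). Of these 126 genes 19 had an unadjusted p under 0.05 in S1pr1 KO against WT (15.1%, against 18% of all genes), 14 in C3 KO against WT (11.1%, against 11%) and 15 in S1pr1 KO against C3 KO (11.9%, against 12%).

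Of 30 inducers of the transition, such as transforming growth factor beta ligands and their receptors, 0 rose and 0 fell in any comparison. Without passing, S1pr1 KO had, set against WT, 17 higher and 13 lower (median log2 fold change 0.05), and C3 KO 17 higher and 13 lower (median log2 fold change 0.02). The ligand gene Tgfb3 had the lowest p of this list in both comparisons with WT, at -0.30 in S1pr1 KO and -0.30 in C3 KO (edgeR adjusted p = 0.150 and 0.346). The hepatocyte growth factor receptor gene Met was at 0.36 in S1pr1 KO and 0.36 in C3 KO (edgeR adjusted p = 0.246 and 0.424). Among 17 tested further transcription factors 0 passed, with the runt factor Runx2 at -0.41 in S1pr1 KO against WT and the HMG-box factor Sox4 at 0.59 in C3 KO against WT (edgeR adjusted p = 0.138 and 0.349). Of 12 corepressor genes, chromatin proteins that Snail and Zeb factors recruit, 0 passed. Relative to WT they were 5 higher and 7 lower (median log2 fold change -0.03) in S1pr1 KO and 2 higher and 10 lower (median log2 fold change -0.08) in C3 KO, with the deacetylase gene Hdac1 in C3 KO at -0.16 (edgeR adjusted p = 0.416).

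On the epithelial side, 24 junction and keratin genes that these factors can repress showed 0 rises and 0 falls. With WT as the comparison, S1pr1 KO had 15 higher and 9 lower (median log2 fold change 0.03), and C3 KO 15 higher and 9 lower (median log2 fold change 0.04). Cdh1, which encodes E-cadherin, had 67.3 ± 5.86 FPKM in S1pr1 KO, 71.4 ± 5.70 FPKM in C3 KO and 65.8 ± 3.07 FPKM in WT (SD, n = 4 each), beside 1.56 ± 0.444, 1.08 ± 0.346 and 0.902 ± 0.133 FPKM of Cdh2 in S1pr1 KO, C3 KO and WT. Per length, Cdh1 lay well above Cdh2 in every group. Its log2 fold change was 0.03 (SE 0.07, 95% interval -0.13 to 0.20, edgeR adjusted p = 0.854) in S1pr1 KO against WT. The claudin gene Cldn4 had the lowest p of the list in both comparisons of S1pr1 KO, at 0.58 against WT and 0.70 against C3 KO (edgeR adjusted p = 0.102 and 0.196). Of 14 tested guardians of the epithelial state 0 passed, with the splicing factor Esrp1 at 0.25 and the grainyhead factor Grhl3 at -1.41 in S1pr1 KO against WT (edgeR adjusted p = 0.144 and 0.203).

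On the mesenchymal side, 0 of 29 tested effector genes passed. Beside WT, S1pr1 KO had 14 higher and 15 lower (median log2 fold change -0.01), and C3 KO 14 higher and 15 lower (median log2 fold change -0.01). Lox, which encodes lysyl oxidase, the enzyme that cross-links collagen and elastin, was at 27.2, 37.0, 25.4 and 20.7 CPM in S1pr1 KO 1 to 4, 46.8, 60.8, 91.1 and 73.9 CPM in C3 KO 1 to 4, and 37.0, 50.7, 53.5 and 54.8 CPM in WT 1 to 4. Every S1pr1 KO library lay below every C3 KO library, a separation that 2.84% of all genes showed in this direction, whereas S1pr1 KO 2 overlapped the WT range at WT 1. Lox had a log2 fold change of -1.30 (SE 0.21, 95% interval -1.77 to -0.84, edgeR adjusted p = 0.0665) in S1pr1 KO against C3 KO, -0.83 (SE 0.21, 95% interval -1.29 to -0.37, edgeR adjusted p = 0.0727) in S1pr1 KO against WT and 0.48 (SE 0.21, 95% interval 0.02 to 0.93, edgeR adjusted p = 0.434) in C3 KO against WT. The stromal and T cell surface gene Thy1 was at -0.46 (SE 0.11, 95% interval -0.70 to -0.21, edgeR adjusted p = 0.0685) in S1pr1 KO against WT. The part of the T cell genes, which were lower in the same comparison, in the Thy1 value was not tested. The galectin gene Lgals1 was at 0.26 in S1pr1 KO against WT and 0.34 against C3 KO (edgeR adjusted p = 0.158 and 0.216).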

How the data were processed

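RNA of 12 lung libraries was analysed from the deposited table of read counts, with whole-number counts for 56748 genes and a column for each library. The submitters' processing notes name CASAVA, STAR, GRCm39 and mm39. Counting tool, strand setting and gene annotation were not stated in the sources used here. Reads of overlapping genes therefore cannot be told apart. The deposited FPKM values, divided by the table's gene lengths and scaled by the authors to a library size that, worked back from the values, is 0.997 to 1.01 times the TMM effective size, were used to compare genes with each other and in alternatives.

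The test on counts was edgeR's (4.0.16, R 4.3.3). After filterByExpr, which left 20229 genes, and TMM scaling, 1 quasi-likelihood fit took all 12 libraries with a mean for each genotype, leaving 9 residual degrees of freedom. Benjamini-Hochberg adjustment ran over every gene tested. SEs were back-calculated from the F statistic, and 95% intervals use the t distribution on the fit's total degrees of freedom. Correlations of log2 CPM (prior count 2) were tested two-sided with 100000 permutations, and, on deviations from group means, over all 13824 orders within groups. The model fits and correlation tests were checked on simulated data.

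The 10 genes, the gene lists and the tests were chosen with earlier results of these data known. The genes named were the 10 members, the targeted genes, from each list up to 3 genes of lowest p per comparison and any that passed, and the 3 genes most like each member. Here the text gives only some of the listed and most alike genes, chosen after their values were seen. Outside this rule, Cdh1 was named for its role, and Sftpc, Cdh5 and Csn2 as tissue markers. Of the listed genes 2 were not matched by name. Alternatives were DESeq2 1.42.0, limma 3.58.1 (voom with quality weights, and FPKM on a log2 scale with a pseudocount of 1 or 0.1, for genes that reach 0.5 FPKM in 4 libraries), upper-quartile or RLE scaling, no filter, a filter of 1 CPM in 4 libraries, fits of only the groups compared, and leaving out each library. Labels give no batch. Replicate numbers follow the order of deposition and pair nothing.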

Additional observations from a re-analysis of the deposited data

Results flagged for a closer look

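Of 30 groups of 4 libraries (10 genes in 3 genotypes), 2 held a library far from the other 3 by Dixon's test at its 95% critical value, and chance alone gives about 1 in 20 groups. Vim was at 889 CPM in C3 KO 3, below the other C3 KO libraries, which lay between 967 and 977 CPM. Without C3 KO 3 the log2 fold change of Vim in C3 KO against WT was -0.05, against -0.08 with it, and it passed in neither fit.

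In the library labelled S1pr1 KO 2 Zeb1 was at 114.3 CPM, below the other S1pr1 KO libraries, which lay between 139.8 and 143 CPM. Without this library the log2 fold change of Zeb1 in S1pr1 KO against WT was 0.14, against 0.07 with it, and it passed in neither fit.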

How the results depend on the processing

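Of the 30 member and comparison pairs, 15 kept direction and call under every alternative run for them, which were 21 for 8 genes and 18 for Twist1 and Twist2, both left out by the FPKM and 1 CPM filters. Of the others, 14 changed sign under at least 1 alternative, and 1 (Cdh2 in S1pr1 KO against WT) changed only its call, passing in DESeq2 with 1 member called there. Leaving out 1 library gave changed signs and log2 ranges, in C3 KO against WT, of Twist1 -0.37 to 0.70, Zeb1 -0.094 to 0.062, Twist2 -0.19 to 0.15, Prrx1 -0.12 to 0.14, Fn1 -0.034 to 0.080 and Snai1 -0.10 to 0.26. In S1pr1 KO against WT the ranges were Zeb2 -0.13 to 0.031, Twist2 -0.068 to 0.27, Snai2 -0.39 to 0.017, Snai1 -0.25 to 0.011, Vim -0.020 to 0.12 and Fn1 -0.13 to 0.0011, and in S1pr1 KO against C3 KO Snai2 -0.038 to 0.35 and Twist2 -0.012 to 0.26. Other sign changes were in C3 KO against WT with voom (Twist1 -0.64, Twist2 0.15), upper-quartile scaling (Twist2 0.0027) and only the 2 groups compared (Twist2 0.0001), and in S1pr1 KO against WT with voom (Fn1 0.0060). All of these were uncalled values, and the cause was not tested.

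Counts over all genes moved more. S1pr1 KO against WT had 274 calls, 1224 with DESeq2, 928 with voom, 171 and 150 on log2(FPKM + 1) and log2(FPKM + 0.1), and 2 to 571 without 1 library, with 2 calls without S1pr1 KO 4 and 5 without WT 4. C3 KO against WT had 2, 156 with DESeq2, 21 with voom, 6 on either FPKM scale, 1 with only the 2 groups compared, and 1 to 32 without 1 library, the 32 without the library labelled C3 KO 4. S1pr1 KO against C3 KO had 0, 284 with DESeq2, 36 with voom, 7 and 6 on the FPKM scales, 15 without a filter, and 0 to 13 without 1 library. No correlation passed under any alternative, and the level order was the same per kilobase of TMM-scaled counts. No paired analysis was possible because the labels give no shared replicate numbers. Twist1 rests on 1 to 84 and Twist2 on 17 to 35 reads a library.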
